A study of Homo sapiens with 6 samples.

Results

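The ABC transporter genes of SKOV3 cells were compared between cells with silenced KLF5 and control cells. The family was taken by name, as the protein-coding genes of the deposited table whose symbol is ABC followed by a subfamily letter from A to G and a number, which gave 43 of the 29185 genes in the table. SKOV3 is a long-established line of human ovarian cancer cells, and KLF5 is a zinc finger transcription factor. RNA-seq was performed on 3 libraries of SKOV3-sh-KLF5 cells, which the labels describe as KLF5 knockdown, and on 3 libraries of SKOV3-sh-NC cells, whose genotype the labels give as WT. The study asked which genes act downstream of KLF5 in resistance of ovarian cancer to PARP inhibitors. Both groups were stable lines made with pLKO lentivirus and selected with puromycin, and no label names an inhibitor treatment of the sequenced cells. The sources used here do not describe the hairpin or separate infections for the 3 libraries of a group, and no rescue of KLF5 was sequenced in these libraries. The p-values therefore measure only the spread between these libraries, which may be technical.

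ABC transporters carry substrates across membranes with the energy of ATP, which is bound and split by their ATP-binding cassettes. Members of subfamilies ABCA to ABCD and ABCG span membranes and move lipids, bile salts, peptides, conjugated metabolites or drugs, and the plasma membrane exporters ABCB1 (P-glycoprotein), ABCC1 (MRP1) and ABCG2 (BCRP) are known in tumour cells for lowering the intracellular level of many chemotherapeutic drugs. ABCE and ABCF proteins have the cassettes but no membrane part, and act in translation.

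The libraries held between 15852319 and 17543896 reads on genes. KLF5 was lower in every sh-KLF5 library (normalized counts 1745, 1440 and 1436) than in every sh-NC library (4371, 4425 and 4494), with a log2 fold change of -1.53 (standard error 0.12, limma adjusted p = 2.47e-07). A normalized count is a gene's read number after division by the scaling factor of its library. Fold changes are differences of log2(normalized count + 1) and come out too small for genes at low counts. Of the ovarian epithelial markers, 5 of the 9 tested fell (KRT8, KRT7, KRT18, MUC16 and CLDN4, against 6.85% of all genes lower in sh-KLF5). ERBB2, PAX8, EPCAM and KRT19 did not pass the test (log2 fold changes -0.33, -0.25, -0.03 and 1.14). KRT19 was at low counts and overlapped between the groups, with 3, 2 and 13 reads in sh-NC and 10, 17 and 8 in sh-KLF5. The summed normalized count of that list, mostly from KRT7 and KRT8, lay at 53865 to 65864 in sh-NC and at 28415 to 38881 in sh-KLF5. Of the fibroblast markers, 3 of the 5 tested fell (COL3A1, DCN and COL1A2, against the same 6.85%), with sums of 1063 to 1518 in sh-NC and 400.1 to 753 in sh-KLF5. LUM and COL1A1 did not pass the test (log2 fold changes -0.45 and 0.30). Among the leukocyte markers, PTPRC, CD68 and LYZ did not exceed 3 reads in any library, and the sums, nearly all from CD14, were 151 to 225 in sh-NC and 191 to 379 in sh-KLF5. The endothelial markers summed to 66.1 to 87.0 in sh-NC and to 34.1 to 73.7 in sh-KLF5, and CDH5 did not exceed 3 reads in any library. PECAM1, the only endothelial marker tested, had a log2 fold change of -0.61 (limma adjusted p = 0.172). The part of these shifts in the results that follow was not tested.

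Of the 43 members, 32 passed the read minimum and were tested, and 8 of these differed between the groups at an adjusted p under 0.05 (25%, against 12.9% of all 15803 genes tested). The rises (5 members, against 6.04% of all genes higher in sh-KLF5) included ABCC9, ABCG2, ABCA1 and ABCC3, and ABCA3, ABCF3 and ABCD2 fell (3 members, against 6.85% of all genes lower). With a change of more than 2-fold required as well, 5 members remained (15.6%, against 5.28% of all genes). These were ABCC9, ABCG2 and ABCA1 among the rises (3 members, background 1.9%) and ABCA3 and ABCD2 among the falls (2 members, background 3.37%). The libraries of the groups did not overlap for 10 members (31.2%), which was close to the 31.3% of all genes. For 6 members the sh-KLF5 libraries were the higher ones (15.4% of all genes) and for 4 the lower ones (15.9% of all genes). They comprised the 8 changed members together with ABCB10, a mitochondrial transporter, and ABCC6, the transporter whose loss causes ectopic calcification. The median log2 fold change was 0.02 over the 32 tested members and 0.00 over all genes. In these bulk libraries, fewer cells expressing a gene and less RNA per cell cannot be told apart.

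**Figure D1:**
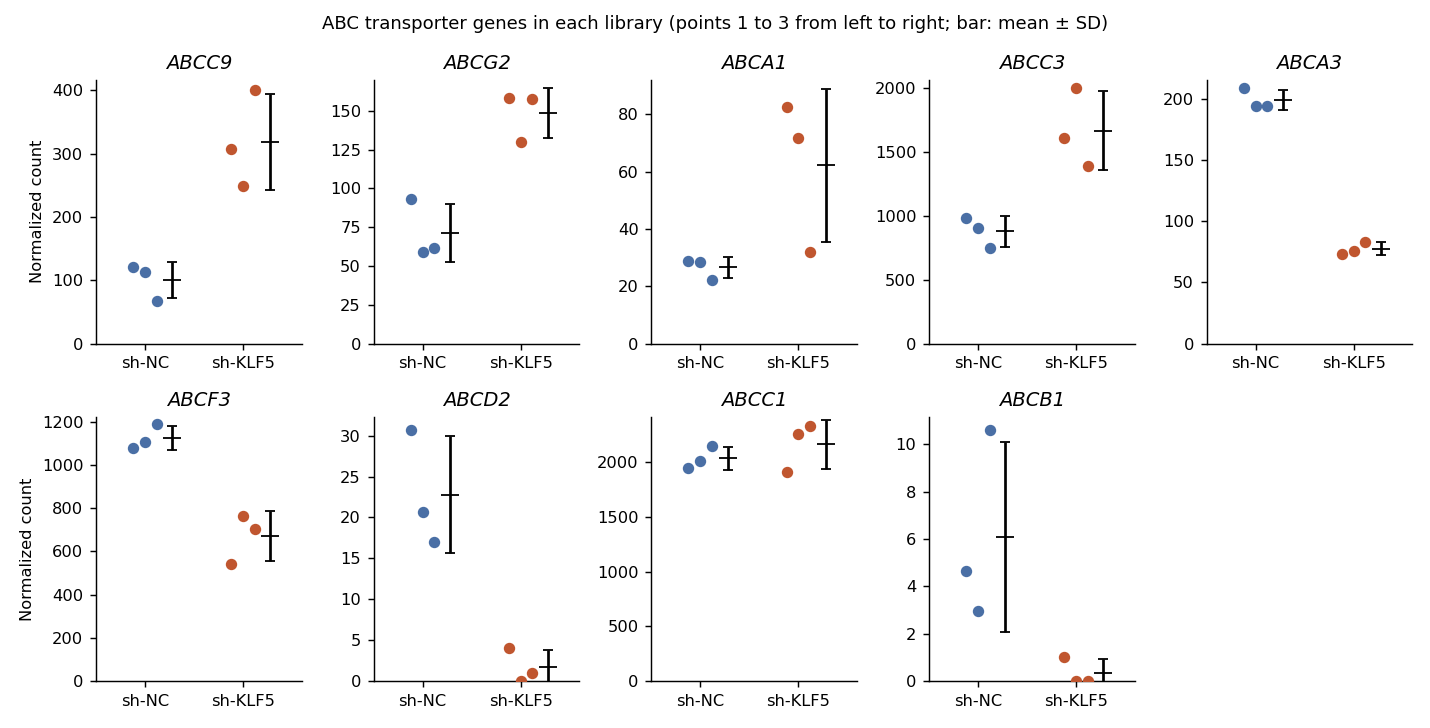
Normalized counts (vertical axes, each starting at 0) of 7 changed members, ABCC1 and ABCB1 in the 3 sh-NC and the 3 sh-KLF5 libraries, with 1 point per library and the mean ± SD as a bar beside the points. The 2 groups do not overlap for any of these 7 changed members, whereas they overlap for ABCC1.

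Promoters were available in the RefSeq table (GRCh38.p14) for 34 of the 43 members and for 6 of the 8 changed members. They are shown because KLF-type factors are known to bind C-rich boxes, so that a reader can see which changed members carry such letters. The 250 bases before 1 start site of each gene are printed 5′ to 3′ on the strand of the gene, and capitals mark CCNCNCCC or its reverse complement, with overlapping matches run together. The windows are chr9:104928156-104928405 (- strand) for ABCA1, chr16:2340729-2340978 (- strand) for ABCA3 and chr12:21941427-21941676 (- strand) for ABCC9. Those of the others are chr12:39619804-39620053 (- strand) for ABCD2, chr3:184185949-184186198 (+ strand) for ABCF3 and chr4:88158860-88159109 (- strand) for ABCG2.
ABCA1: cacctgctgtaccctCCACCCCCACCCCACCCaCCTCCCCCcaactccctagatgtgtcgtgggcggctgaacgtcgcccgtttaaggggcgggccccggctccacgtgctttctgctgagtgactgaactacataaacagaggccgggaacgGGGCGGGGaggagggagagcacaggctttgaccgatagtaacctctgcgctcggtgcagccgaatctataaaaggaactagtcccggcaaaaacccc
ABCA3: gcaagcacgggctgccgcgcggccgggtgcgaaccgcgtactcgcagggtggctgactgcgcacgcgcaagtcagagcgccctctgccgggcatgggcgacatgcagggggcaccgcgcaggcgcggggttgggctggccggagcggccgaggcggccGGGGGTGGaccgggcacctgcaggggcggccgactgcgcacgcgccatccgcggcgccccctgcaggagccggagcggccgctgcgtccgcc
ABCC9: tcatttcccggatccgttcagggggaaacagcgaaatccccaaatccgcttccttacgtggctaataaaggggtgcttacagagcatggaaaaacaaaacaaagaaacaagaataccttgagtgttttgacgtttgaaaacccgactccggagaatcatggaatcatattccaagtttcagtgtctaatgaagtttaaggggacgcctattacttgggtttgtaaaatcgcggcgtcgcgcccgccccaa
ABCD2: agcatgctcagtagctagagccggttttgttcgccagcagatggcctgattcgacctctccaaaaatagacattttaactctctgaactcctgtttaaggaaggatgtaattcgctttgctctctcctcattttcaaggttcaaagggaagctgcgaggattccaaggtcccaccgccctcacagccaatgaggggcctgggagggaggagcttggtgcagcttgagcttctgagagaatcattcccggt
ABCF3: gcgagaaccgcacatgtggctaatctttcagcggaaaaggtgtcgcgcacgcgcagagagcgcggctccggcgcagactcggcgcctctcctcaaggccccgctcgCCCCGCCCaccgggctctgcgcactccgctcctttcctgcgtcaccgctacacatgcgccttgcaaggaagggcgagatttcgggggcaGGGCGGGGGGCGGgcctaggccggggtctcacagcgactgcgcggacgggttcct
ABCG2: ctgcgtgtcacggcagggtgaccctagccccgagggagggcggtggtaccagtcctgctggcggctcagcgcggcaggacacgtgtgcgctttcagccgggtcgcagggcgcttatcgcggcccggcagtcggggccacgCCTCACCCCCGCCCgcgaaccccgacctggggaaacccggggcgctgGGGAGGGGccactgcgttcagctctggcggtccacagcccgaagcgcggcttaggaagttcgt

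The printed window of ABCA1 held 5 matches, and those of ABCF3 and ABCG2 held 3 each. ABCA3 had 1 match, and ABCC9 and ABCD2 had 0. Where a gene had more than 1 window, the printed one had the most annotated transcript starts within 100 bases. Of the 5 windows of ABCG2, 3 held a match, and of the 2 windows of ABCD2, 0 did. Matching windows were thus present in genes that rose and in genes that fell. Over the family, 24 of 50 windows held a match (48%, against 53.4% of all 35116 promoter windows of this length). A match is a description of the letters and not a binding site.

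Among the drug exporters, ABCG2 rose, ABCC1 was not distinguishable between the groups, and ABCB1 was near the limit of detection. ABCG2, the breast cancer resistance protein (ENSG00000118777, chromosome 4, 88090264 to 88231322, - strand, GRCh38), had normalized counts of 93.1, 59.1 and 61.5 in sh-NC libraries 1, 2 and 3 and of 158, 130 and 157 in the sh-KLF5 libraries. Each sh-KLF5 library was above each sh-NC library, although sh-NC library 1 stood well above the other controls. The means were 71.3 ± 19.0 (SD, n = 3) and 148 ± 15.98 (SD, n = 3), and the log2 fold change was 1.07 (standard error 0.22, limma adjusted p = 0.00294, 95% confidence interval 0.61 to 1.53). ABCC1 (ENSG00000103222, chromosome 16, 15949577 to 16143074, + strand), an exporter of glutathione conjugates and of drugs such as anthracyclines, had 1946, 2012 and 2147 in sh-NC and 1907, 2257 and 2328 in sh-KLF5. The groups overlapped, with sh-KLF5 library 1 the lowest of all. Its log2 fold change of 0.08 (standard error 0.12, limma adjusted p = 0.697) had a 95% confidence interval from -0.16 to 0.33, which leaves out a change of 2-fold in either direction. ABCB1 (ENSG00000085563, chromosome 7, 87503633 to 87713323, - strand), the P-glycoprotein gene, had 5, 3 and 10 reads in sh-NC and 1, 0 and 0 reads in sh-KLF5, below the read minimum of the test. In a fit with no filter on low counts its limma adjusted p was 0.0333, which is not comparable with those of the reported fit. Without the filter, limma gave ABCC9 an adjusted p of 2.2e-15 at an unchanged log2 fold change, against 9.35e-05 in the reported fit. Summed over the libraries, ABCB1 had 18 reads against 1. Thus sh-KLF5 held 5.62% of the sh-NC level with an exact 95% interval of 0.135% to 35.6%, which covers counting error only. Every sh-KLF5 library was below every sh-NC library for ABCB1, at read numbers where a count of 0 still allows 3 reads.

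On the scale of normalized counts per kb of gene length, on which genes can roughly be compared, ABCC1 was far above the other drug exporters in both groups. ABCC1 stood 19.9 ± 5.22 times (SD, n = 3) above ABCG2 in sh-NC and 9.81 ± 1.76 times in sh-KLF5. The ratio of ABCC1 to ABCC3 amounted to 2.995 ± 0.592 in the sh-NC and 1.69 ± 0.382 in the sh-KLF5 libraries. For both ratios every sh-KLF5 library was below every sh-NC library, while the ratio of ABCC3 to ABCG2 overlapped between the groups (6.65 ± 1.29 and 6.02 ± 1.82). These ratios restate the rises of ABCG2 and ABCC3 beside ABCC1, which was not distinguishable between the groups, and are no further result.

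Of the other exporters of subfamily C, 1 of 6 tested members rose and 0 fell (12.9% of all genes changed in either direction). This was ABCC3 (MRP3, ENSG00000108846, chromosome 17, 50634777 to 50692252, + strand), which exports glucuronides and bile salts across the basolateral membrane. The libraries had normalized counts of 981, 908 and 745 in sh-NC, against 1609, 2003 and 1390 in sh-KLF5, and the lowest sh-KLF5 library was well above the highest sh-NC library. With means of 878 ± 121 and 1667 ± 311 (SD, n = 3 each), the log2 fold change was 0.92 (standard error 0.15, limma adjusted p = 0.000381), below the 2-fold line. In absolute counts this was the largest difference of means among the members that rose. ABCC2, ABCC4, ABCC5 and ABCC6 had log2 fold changes from -0.60 to 0.15 and adjusted p of 0.331 or more. ABCC10 (MRP7), an exporter of taxanes, had a log2 fold change of 0.33 with a limma adjusted p of 0.138. Without sh-KLF5 library 1 it was 0.46 with a limma adjusted p of 0.00476, whereas the other 5 fits that left out a library gave adjusted p of 0.203 or more. ABCC11 was below the read minimum, at 9, 7 and 2 reads in sh-NC and 25, 14 and 4 reads in sh-KLF5. Reads of ABCC6 may be shared with its pseudogene copies, so that its level is uncertain.

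The largest rise in the family was that of ABCC9 (SUR2, ENSG00000069431, chromosome 12, 21797401 to 21942529, - strand), which is not an exporter but the regulatory subunit of ATP-sensitive potassium channels. It had normalized counts of 121, 113 and 67.9 in sh-NC and of 307, 248 and 400.1 in sh-KLF5. The groups were clearly apart, with sh-NC library 3 the lowest and sh-KLF5 library 3 the highest. The means were 101 ± 28.7 and 318 ± 76.5 (SD, n = 3 each), and the log2 fold change was 1.67 (standard error 0.23, limma adjusted p = 9.35e-05, 95% confidence interval 1.19 to 2.15). Only 0.749% of its exonic bases are shared with another gene. The paralog ABCC8 (SUR1) had 0, 5 and 4 reads in sh-NC and 0 reads in each sh-KLF5 library. KCNJ11, which encodes a pore subunit of these channels and was chosen after its values were seen, had 9, 7 and 5 reads in sh-NC and 0, 1 and 0 reads in sh-KLF5. Both were below the read minimum for testing, and KCNJ8, the other pore subunit, was not analysed here.

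**Figure D2:**
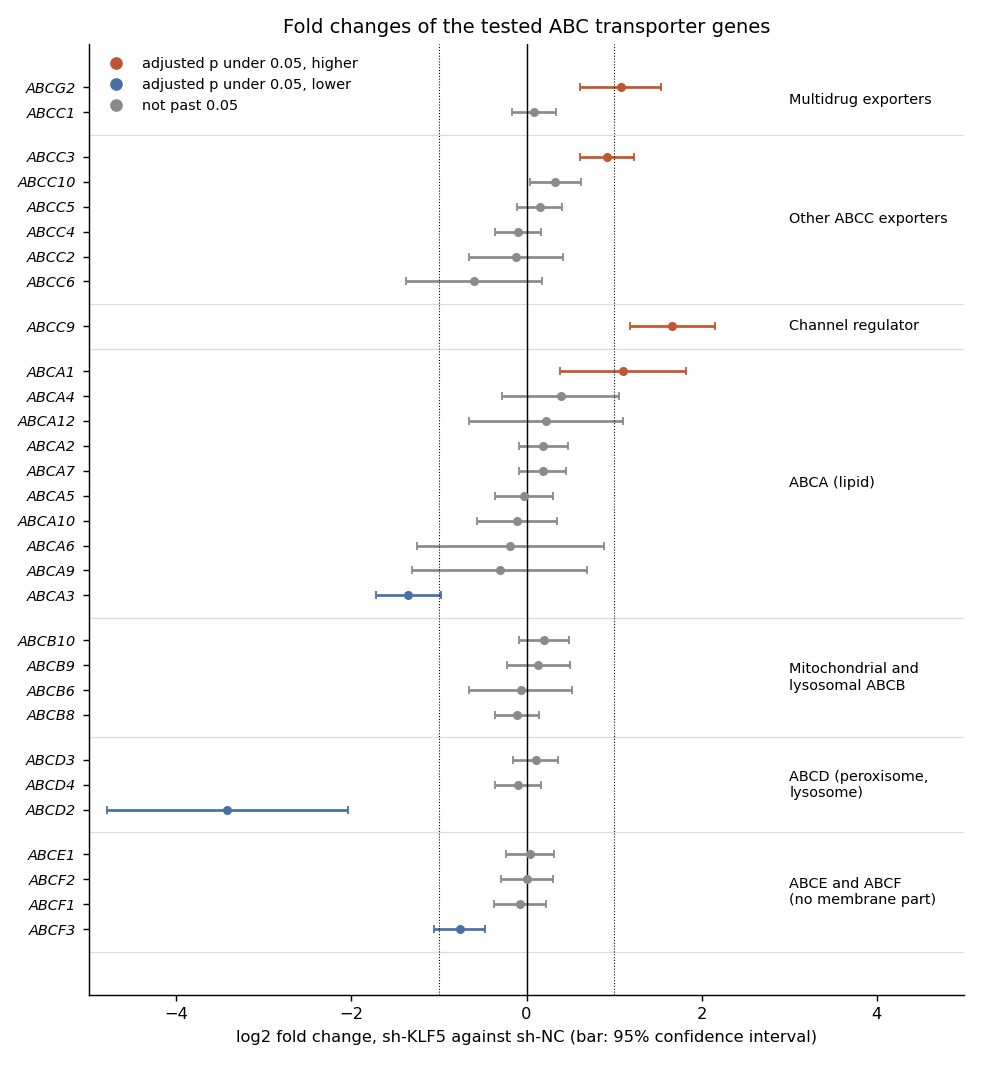
Log2 fold change of sh-KLF5 against sh-NC (horizontal axis, points, with 95% confidence intervals as bars) of 30 tested members, grouped by role, with dotted lines at a 2-fold change. Rises (orange) run from 0.92 for ABCC3 to 1.67 for ABCC9 and falls (blue) from -0.76 for ABCF3 to -3.42 for ABCD2, while the grey members lie between -0.60 and 0.39.

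In the lipid transporters of subfamily A, 10 of the 12 members were tested, of which 1 rose and 1 fell (12.9% of all genes changed in either direction). ABCA3 (ENSG00000167972, chromosome 16, 2275881 to 2340746, - strand), which loads phospholipids into the lamellar bodies of lung epithelium, fell with very little spread. It had normalized counts of 209, 194 and 194 in sh-NC and 73.4, 75.7 and 83.2 in sh-KLF5, with means of 199 ± 8.32 and 77.4 ± 5.15 (SD, n = 3 each). The log2 fold change was -1.35 (standard error 0.18, limma adjusted p = 6.41e-05), the smallest p of the family. ABCA1 (ENSG00000165029, chromosome 9, 104781002 to 104928237, - strand), which passes cholesterol and phospholipid to apolipoproteins, had 28.9, 28.6 and 22.3 in sh-NC and 82.6, 71.8 and 32.1 in sh-KLF5. Here sh-KLF5 library 3 lay just above the controls and far below the other sh-KLF5 libraries. The means were 26.6 ± 3.72 and 62.1 ± 26.6 (SD, n = 3 each), and the log2 fold change of 1.10 (standard error 0.34) was near the threshold (limma adjusted p = 0.0431). Scaling by library size alone gave an adjusted p of 0.0571, and the call was kept in 1 of the 6 fits that left out a library (adjusted p up to 0.17). Per kb, ABCA3 stood at 11.02 ± 1.47 times the level of ABCA1 in the sh-NC libraries and at 2.2 ± 1.37 times in the sh-KLF5 libraries. ABCA3 fell and ABCA1 rose without overlap, so all 3 sh-KLF5 ratios had to lie below the sh-NC ratios. The ratio thus adds no further result. The remaining 8 tested ABCA members had log2 fold changes from -0.30 (ABCA9) to 0.39 (ABCA4). ABCA5, ABCA6, ABCA8, ABCA9 and ABCA10 lie next to each other on chromosome 17 (68867292 to 69327244), yet ABCA5 alone was at a high level, with 2446 to 3901 reads per library, and ABCA8 did not exceed 2 reads in any library. None of the 4 tested genes of this cluster passed the threshold.

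The sterol transporters ABCG1, ABCG4, ABCG5 and ABCG8 were below the read minimum. ABCG1, which like ABCA1 exports cholesterol, had 7, 8 and 8 reads in sh-NC and 19, 12 and 0 reads in sh-KLF5, so that sh-KLF5 library 3 was the lowest for this gene as well. ABCG4 had between 2 and 14 reads, and ABCG5 and ABCG8 did not exceed 2 reads in any library. Of the bile salt and other transporters of subfamily B, ABCB5 had 8, 8 and 9 reads in sh-NC and 4, 6 and 4 reads in sh-KLF5, and ABCB11, the bile salt export pump, did not exceed 3 reads in any library and had 0 reads in all sh-NC libraries. ABCA13 was near the limit of detection too, with at most 5 reads in a library. ABCC8 and ABCB11 were the 2 members without a read in all libraries of a group.

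Of the subfamily of peroxisomal and lysosomal transporters, ABCD2 fell and was at low counts. ABCD2 (ENSG00000173208, chromosome 12, 39550033 to 39619751, - strand), a peroxisomal importer of fatty acyl-CoA, had 33, 21 and 16 reads in sh-NC and 4, 0 and 1 in sh-KLF5. Over the group these were 70 reads against 5, which is 7.23% of the sh-NC level with an exact 95% interval of 2.28% to 17.7%, for counting error only. Its fitted log2 fold change of -3.42 (standard error 0.65, limma adjusted p = 0.0018) depends on the pseudocount and ranged from -4.85 to -2.07. ABCD3, the abundant peroxisomal half-size transporter, had a log2 fold change of 0.10, and ABCD4, a lysosomal protein of cobalamin transport, one of -0.10, and neither passed the test. In counts per kb, ABCD3 was at 261 in the control and 282 in the knockdown libraries, and ABCD2 at 3.65 and 0.271.

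Of the members without a membrane part, 1 of 4 fell (6.85% of all genes fell). ABCF3 (ENSG00000161204, chromosome 3, 184186023 to 184194012, + strand), a cytosolic cassette protein, had normalized counts of 1081, 1110 and 1191 in sh-NC and 540.2, 764 and 706 in sh-KLF5. All sh-KLF5 libraries were lower, sh-KLF5 library 1 most of all. The means of 1127 ± 56.8 and 669.9 ± 116 (SD, n = 3 each) gave a log2 fold change of -0.76 (standard error 0.14, limma adjusted p = 0.00104). ABCC5, which lies 168008 bases away on the same chromosome, had a log2 fold change of 0.15 (adjusted p = 0.476). ABCE1, needed for recycling ribosomes, ABCF1 and ABCF2 had log2 fold changes of 0.04, -0.07 and 0.00, all with adjusted p of 0.784 or more. Of the exonic bases of ABCF2, 45.8% lie in another annotated gene on the same strand. Of those of ABCE1, 11.9% lie in genes on the opposite strand, and whether counting used strand is not stated in the sources used here. Of the mitochondrial and lysosomal members ABCB6, ABCB8, ABCB9 and ABCB10, some of which act in haem metabolism, 0 were called, with log2 fold changes from -0.11 to 0.20 (limma, with 0 also at an unadjusted p under 0.05 and 0 by edgeR and by DESeq2). ABCB6 shares 54.7% of its exonic bases with a gene on the same strand, and ABCB9 shares 24.5% with genes on the opposite strand.

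The 5 members with the highest level per kb were ABCF1, ABCE1, ABCC1, ABCD3 and ABCA5, and none of them changed. ABCF1 reached 745 ± 34.3 in the sh-NC and 717 ± 140 in the sh-KLF5 libraries (SD, n = 3 each), ABCE1 at 416 ± 37.4 and 431 ± 66.8, and ABCC1 at 269 ± 13.5 and 286 ± 29.8. ABCD3 followed at 261 ± 9.45 and 282 ± 38.7 and ABCA5 at 241 ± 38.1 and 239 ± 55.5. ABCF1 was separated from ABCE1, and ABCE1 from ABCC1, in all libraries of both groups, whereas ABCC1, ABCD3 and ABCA5 overlapped. This order makes no allowance for exonic bases shared with other genes, such as 45.8% for ABCF2 and 11.9% for ABCE1. The changed members moved within this order. ABCF3 went from rank 6 in sh-NC to rank 12 in sh-KLF5, ABCC3 from 13 to 8, ABCC9 from 24 to 20, ABCA3 from 19 to 23, ABCA1 from 30 to 26 and ABCD2 from 27 to 36, while ABCG2 moved only from 20 to 19. The rank of ABCD2 in sh-KLF5 rests on 5 reads. The ranks of members below the read minimum also differed, such as ABCB1 from 34 to 41, ABCC11 from 37 to 31 and ABCB11 from 43 to 38. They rest on few summed reads, with 18 in sh-NC and 1 in sh-KLF5 for ABCB1. For ABCC11 these were 18 and 43, and for ABCB11 0 and 4. The level per kb summed over the 43 members came to 3694, 3637 and 3588 in sh-NC and to 3770, 3755 and 3847 in sh-KLF5, so that the sums did not overlap but differed little.

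**Figure D3:**
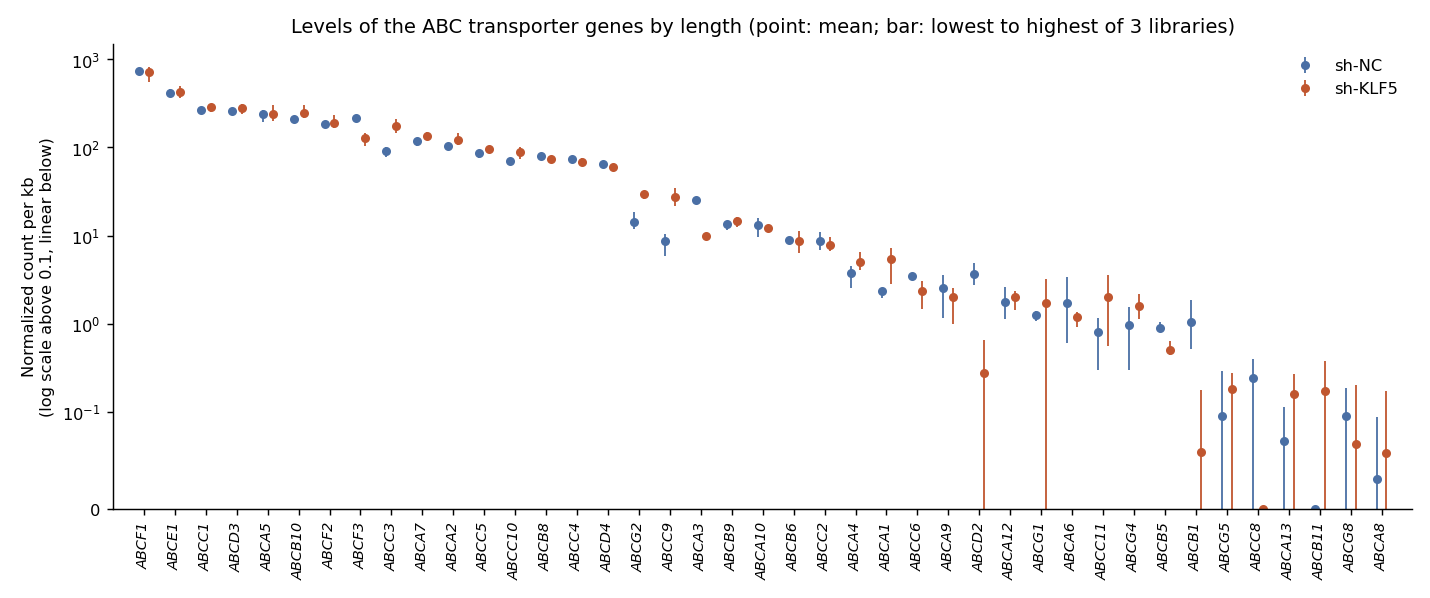
Level of 41 members in normalized counts per kb (vertical axis, logarithmic above 0.1 and linear below), ordered by the mean over all 6 libraries, with points for the group means and bars from the lowest to the highest library. The 5 highest members overlap between sh-NC and sh-KLF5, while ABCF3 and ABCA3 are lower and ABCC3, ABCG2, ABCC9 and ABCA1 higher in sh-KLF5.

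The 24 tested members that did not change had log2 fold changes from -0.60 to 0.39, and for 19 of them the 95% confidence interval lay within a 2-fold change in either direction (14 within a log2 fold change of 0.5). The standard deviation of the log2 values had a median of 0.132 over the tested members in sh-NC and of 0.253 in sh-KLF5. Over all genes tested, the medians were 0.144 in sh-NC and 0.221 in sh-KLF5. This standard deviation was larger in sh-KLF5 for 19 of the 32 members (59.4%, against 67.2% of all genes). Over the 15803 genes, sh-KLF5 library 1 lay farthest from the median of its group for 7862, against 3925 and 4016 for libraries 2 and 3. Among the 32 members these numbers were 12, 11 and 9 for libraries 1, 2 and 3.

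CFTR, TAP1 and TAP2 belong to the family by structure but not by symbol. The chloride channel gene CFTR had 6, 1 and 1 reads in sh-NC and 25, 41 and 7 reads in sh-KLF5, so that each sh-KLF5 library was above each sh-NC library, but it was below the read minimum. In a fit with no filter on low counts it had a limma adjusted p of 6.66e-05. As for ABCB1, a p-value of that fit is not comparable with those of the reported fit. TAP1 and TAP2, which form the transporter that loads peptides for HLA class I, had log2 fold changes of -0.02 (adjusted p = 0.957) and 0.23 (adjusted p = 0.256).

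Of 47 genes that regulate, assist or act beside the ABC transporters, 37 were tested, of which 4 rose and 1 fell (13.5%, close to the 12.9% of all genes). These 5 were among the 11 tested genes of sterol handling and export, against 12.9% of all genes changed in either direction. That list was chosen with earlier results of these data known. NPC1, which moves cholesterol out of lysosomes, had normalized counts of 2824, 2662 and 2809 in sh-NC and 4384, 4318 and 4056 in sh-KLF5 (log2 fold change 0.62, limma adjusted p = 0.000845). NPC2, its soluble partner, had 826, 935 and 963 against 1844, 1478 and 1309 (log2 fold change 0.75, adjusted p = 0.00109). For both genes the groups were far apart. SCARB1, the high-density lipoprotein receptor, had 2398, 2052 and 2342 against 2788, 3274 and 3255 (log2 fold change 0.46, adjusted p = 0.0164). NR1H3 (LXRα), the oxysterol receptor that is known to drive ABCA1 and ABCG1, had 289, 282 and 341 against 399.5, 461 and 417 (log2 fold change 0.49, adjusted p = 0.0278). The calls of SCARB1 and NR1H3 were lost in 3 and 4 of the 6 fits that left out a library, with adjusted p of up to 0.139 and 0.146, both without sh-NC library 2. APOE, a lipid acceptor that is itself induced by LXR in some cells, fell from 85.7, 62.1 and 83.8 to 21.4, 22.3 and 13.0 (log2 fold change -1.99, adjusted p = 0.000229). Of the 8 tested regulators of the response to foreign compounds, such as NFE2L2 and AHR, 0 passed the threshold (limma, 3 at an unadjusted p under 0.05). The same count of 0 was found for the 12 tested partner proteins and for the 6 tested genes of other drug and metal transport, with 2 genes each at an unadjusted p under 0.05, and edgeR and DESeq2 also gave 0 for these 3 lists.

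**Figure D4:**
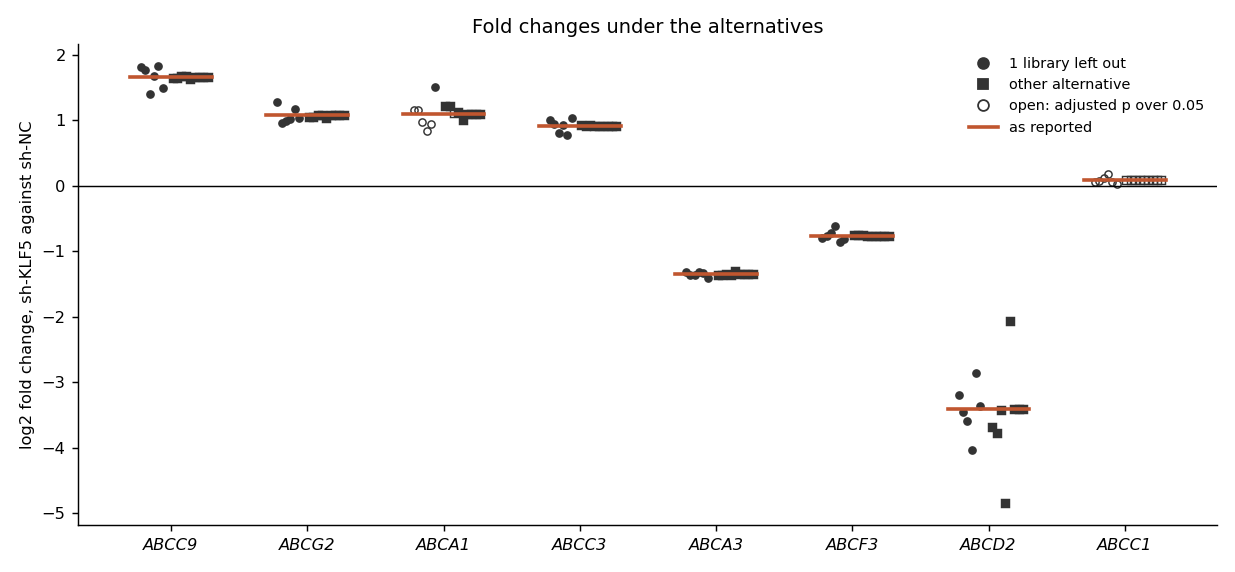
Log2 fold change of sh-KLF5 against sh-NC (vertical axis) of 7 changed members and ABCC1 when 1 library is left out (circles) or under the other alternatives (squares), with open symbols for an adjusted p over 0.05 and a line for the reported value. The direction is the same in all fits shown, ABCA1 is open in 5 of 6 circles, and ABCD2 spreads from -4.85 to -2.07.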

How the data were processed

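Libraries were assigned to groups by the sample titles, which name NC or KLF5 knockdown. The authors deposited 1 table with a normalized signal per gene and library, the read count divided by 1 factor per library. The submitters' processing notes name HISAT2 2.0.5, featureCounts 1.5.0-p3, DESeq2 1.20.0 and hg38. The authors' group means, fold changes and p-values in the table were not used. The values were whole multiples of 1 step per library (100%, within 1e-06 of a read), which gave reads per gene, and coordinates matched GENCODE release 29 for all 43 members. Because the values are normalized, limma 3.58.1 (R 4.3.3, trend and robust empirical Bayes) was run on log2(normalized count + 1) over the 15803 genes kept by filterByExpr of edgeR 4.0.16 (minimum count 10), with Benjamini-Hochberg adjustment over these genes. Two-sided exact permutation tests cannot go below p = 0.1 with 3 libraries against 3. Up to 3 reads are compatible with a count of 0, and since the reads carry no molecular identifiers, intervals cover counting error only. Levels were divided by the deposited gene length. Alternatives were edgeR and DESeq2 1.42.0 on the recovered reads, other pseudocounts (0.1 and 5), other scaling and filters, a replicate block and leaving out each library. The scripts were tested on simulated data.

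The members and gene lists were chosen with earlier results of these data known. The text names ABCB1, ABCC1 and ABCG2, members with an adjusted p under 0.05, the 5 members with the highest level per kb, KLF5, CFTR, TAP1, TAP2 and list genes with an adjusted p under 0.05. Other genes were named after their values were seen. ABCB4 and ABCC12 were not analysed here. Some genes that enter the counts are not reported here by name.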

Additional observations from a re-analysis of the deposited data

How the results depend on the processing

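The numbers of members with an adjusted p under 0.05 (5 higher and 3 lower in sh-KLF5) were 5 and 3 with edgeR and with DESeq2 on the recovered reads. They were 4 and 3 with scaling by library size alone, where ABCA1 was lost. With no filter on low counts they were 5 and 4, where ABCB1 was added (limma adjusted p = 0.0333), but p-values of that fit are not comparable with the reported ones. With 1 library left out they were 3 to 5 and 3. The 3 rises that were called with the fold threshold became 1 to 4, with 1 (ABCC9) without sh-NC library 2 or without sh-NC library 3, and the 2 falls remained 2. With at least 10 reads in every library, ABCD2 was not tested and 1 called fall was left. The median log2 fold change over the tested members (0.02) was 0.0845 with that filter and -0.0117 to 0.0741 with 1 library left out, on both sides of 0. ABCG2 stayed above 0 in all fits (0.96 to 1.28 with 1 library left out), under 2-fold without sh-NC library 2 or 3, and ABCC1 did not pass the test in any. With 1 library left out, members and relatives that had not changed crossed 0, without passing the test: TAP1 ranged from -0.0694 to 0.0858, ABCF1 from -0.19 to 0.0942, ABCE1 from -0.0595 to 0.167 and ABCA5 from -0.207 to 0.0957. The labels number the libraries of both groups from 1 to 3, but same-numbered libraries deviated together only weakly (correlations 0.059, 0.033 and 0.0504), although 6 of 6 libraries correlated best with their own number. A fit with the replicate number as a block gave 5 rises and 3 falls, of which 3 and 2 passed the fold threshold, a median of 0.02, and log2 fold changes of 1.07 for ABCG2, 0.08 for ABCC1 and -1.53 for KLF5. The 5 members with the highest level were the same 5 without division by length. The read minimum kept 11 members, with at most 25 reads in a library, out of the reported test. ABCC10 was gained without sh-KLF5 library 1 (adjusted p = 0.00476), where ABCA1 was lost.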
